A study of Mus musculus with 24 samples.

Results

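RNA of intestinal epithelium was compared between irradiated and non-irradiated wild-type (WT) mice, in colon and in ileum. Of the 24 libraries of the series, 10 belong to these groups, a colon and an ileum library from each of 5 mice. The WT irradiated group held mice 59 and 61, which the labels place 8 weeks after chimerism, with no donor named. The WT non-irradiated group held mice 72, 73 and 75, labelled as not treated. All 5 were C57BL/6 mice with a listed age of 8 to 14 weeks, and the labels do not say at which moment that age was taken. From every mouse CD45-negative cells carrying a tomato reporter under the Villin promoter were sorted, Villin being an actin-bundling protein of the epithelial brush border. Irradiation, chimerism and the time since then came together and cannot be told apart. The remaining libraries are labelled KO early stage (4 mice, 2 weeks post chimerism) or KO late stage (3 mice, 8 weeks post chimerism), with the same strain, age range and sort, and they enter the comparisons through the shared estimate of the spread. Replicates are separate mice, and each comparison rests on 2 against 3 of them.

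The gut epithelium renews itself from dividing crypt cells, which makes it one of the tissues most sensitive to ionising radiation. In the first days after exposure, p53 targets such as Cdkn1a respond, crypt cells are lost, and surviving cells with fetal-like expression rebuild the crypts. The epithelium also answers to cytokines of the immune cells beside it. Interferon-gamma induces guanylate-binding proteins, immunity-related GTPases and both classes of MHC genes, and IL-22 induces the Reg3 antimicrobial lectins.

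No gene passed the test between WT irradiated and WT non-irradiated mice, in either tissue, in both tissues together, or in the difference between tissues. With limma and Benjamini-Hochberg adjustment the number of genes with an adjusted p under 0.05 was 0 of 19145 tested in colon (0%) and 0 of 19122 in ileum (0%). It was also 0 of 19588 for the change common to both tissues (0%) and 0 of 19588 for the difference between them (0%). An unadjusted limma p under 0.05 was found for 66 genes in colon (0.345%), of which 41 were higher (0.214%) and 25 lower (0.131%) in WT irradiated mice. In ileum it was found for 187 genes (0.978%), 76 of them higher (0.397%) and 111 lower (0.58%). It was found for 46 genes in common (0.235%), with 18 higher (0.0919%) and 28 lower (0.143%), and for 172 genes in the difference (0.878%). Each of these shares lies below 0.05 of the genes, the share that evenly spread p values would give. The cause was not tested. On reads recovered from the table, edgeR called 0 genes in each comparison, with 53, 180, 132 and 129 genes at an unadjusted p under 0.05, and DESeq2 called 0, with 72, 199, 163 and 156. The differences that follow are therefore values that did not pass, and their size is on a log2(value + 1) scale, which understates low genes. Close relatives such as the Gbp, Ifit and Reg3 genes may share reads, and reads of overlapping genes may not be separated, since no source used here states the strand setting of the counting.

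The WT libraries held 10.6 to 18.7 M reads. The 10 epithelial identity genes, Epcam and Vil1 among them, together took 9010 to 15740 reads per M in the WT irradiated libraries and 8809 to 14335 in the WT non-irradiated libraries. The 10 pan-leukocyte genes took 56.5 to 104 reads per M in WT irradiated and 50.3 to 108 in WT non-irradiated libraries, and none of the 10 was at 0 in all libraries of a group. Olfactory and vomeronasal receptor genes, 1455 of them, served as a measure of reads from genes that are normally silent in gut. In colon they took 208 and 549 reads per M in irradiated mice 59 and 61, and 202, 205 and 635 in non-irradiated mice 72, 73 and 75. In ileum they took 155 and 391 reads per M in mice 59 and 61, and 188, 310 and 370 in mice 72, 73 and 75. The ribosomal RNA gene Rn45s ranged from 0.130 to 3.50% of reads in WT irradiated libraries and from 0.105 to 25.4% in WT non-irradiated libraries.

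Likeness between libraries did not follow the groups. Over 10572 colon genes averaging 100 normalised reads or more (whole reads scaled by 1 factor for each library), the median absolute log2 difference was 0.41 between irradiated mice 59 and 61. It was 0.19 between irradiated mouse 61 and non-irradiated mouse 75. It was also 0.19 between irradiated mouse 59 and non-irradiated mouse 73, and 0.20 between non-irradiated mice 72 and 73, while mouse 75 differed from these by 0.58 and 0.62. The first principal component of the 5 colon libraries took 80.6% of their variance and set mice 61 and 75 (weights 0.45 and 0.63) apart from mice 59, 72 and 73 (-0.30, -0.36 and -0.43). In ileum, over 10635 genes, mice 61 and 75 again differed least, by 0.20, against 0.37 between the irradiated mice 59 and 61. Mice 61 and 75 thus stood apart in colon whatever their group. The receptor reads moved with this split, and their part in it was not tested. For some results values are also given within 2 pairings, mouse 59 against the mean of mice 72 and 73, and mouse 61 against mouse 75. The pairings follow the likeness in colon. In ileum mouse 59 differed from mouse 72 by 0.22 but from mouse 73 by 0.35, so that pairing is less alike there.

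**Figure D1:**
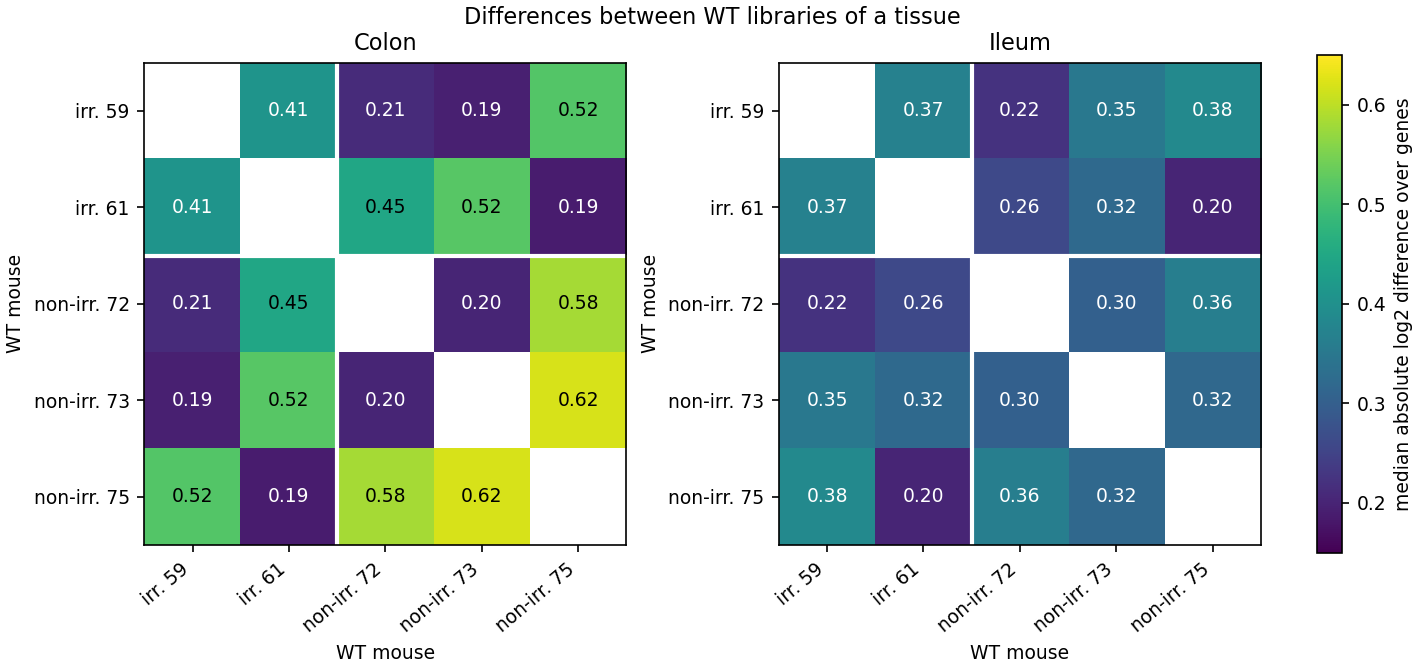
Median absolute log2 difference between each pair of WT libraries in colon (left, 10572 genes) and ileum (right, 10635 genes); irradiated mice come first and white lines separate the groups. In colon the pair of irradiated mice 59 and 61 differed by 0.41, while irradiated mouse 61 and non-irradiated mouse 75 differed by 0.19.

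In the ileum genes were named separately for each direction, among those averaging 5 or more reads per M whose groups did not overlap. Predicted-only names were passed over. On the side higher in WT irradiated mice, the 5 with the smallest unadjusted p were Ubd, Serpinb5, Gbp2, Cd274 and Clic4. Of these, Ubd, Gbp2 and Cd274 are known to be interferon-inducible. Ubd encodes FAT10, a ubiquitin-like protein induced by interferon-gamma and TNF. It had 1019 and 1453 normalised reads in WT irradiated ileum (mice 59 and 61, the order kept throughout), against 276, 195 and 176 in WT non-irradiated ileum (mice 72, 73 and 75). The lowest irradiated value was thus well above the highest non-irradiated one, and the log2 difference was 2.52 ± 0.56 (SE), with a 95% interval of 1.31 to 3.72 and an unadjusted p of 0.000544 in limma, the smallest of the tissue. Gbp2, a guanylate-binding GTPase of cell-autonomous defence, had 377 and 514 normalised reads in WT irradiated ileum, against 81.7, 127 and 116 in WT non-irradiated ileum. Its log2 difference was 2.04 ± 0.53 (SE). Cd274 encodes PD-L1, the ligand that restrains T cells through PD-1. It had 481 and 582 normalised reads in WT irradiated ileum, against 216, 274 and 141 in WT non-irradiated ileum (log2 difference 1.38 ± 0.37, SE). These 3 genes were named by a rule that required groups without overlap. In bulk epithelium fewer cells of a type and less RNA per cell cannot be told apart.

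Within the pairings, where the naming rule fixes the direction, the sizes varied. Ubd differed by 2.13 on the log2 scale between irradiated mouse 59 and the mean of non-irradiated mice 72 and 73, and by 3.04 between irradiated mouse 61 and non-irradiated mouse 75. For Gbp2 these values were 1.88 and 2.13, and for Cd274 they were 0.98 and 2.03. Over the 18 alternatives run for ileum, the log2 difference lay between 2.13 and 2.77 for Ubd, 1.81 and 2.26 for Gbp2, and 0.98 and 1.60 for Cd274. In 1 of them, chosen after the data were seen, Ubd (2.49 ± 0.28, SE) and Gbp2 (2.16 ± 0.25, SE) had a limma adjusted p of 0.0102 each. That fit held only the 5 WT ileum libraries with 1 surrogate variable, a covariate estimated from the values themselves.

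Of 31 interferon response genes tested in ileum, 0 passed the test. This list, like the others, was chosen with earlier results of these data known. Its members were measured in the same 5 mice and are not separate observations of irradiation, so the shares that follow only describe. In 10 of the 31 (32.3%) both irradiated mice were above all 3 non-irradiated mice, against 5.67% of all 19122 genes, and in 1 (3.23%) both were below, against 4.15%. An unadjusted p under 0.05 with the higher level in WT irradiated mice was found for 5 of the 31 (16.1%), against 0.397% of all genes. Those 5 were Gbp2, its relative Gbp7, the immunity-related GTPases Igtp and Iigp1, which act on vacuoles of intracellular pathogens, and Zbp1, a sensor of nucleic acids. Ubd and Cd274 are not on this list. Igtp had 628 and 891 normalised reads in WT irradiated ileum, against 222, 365 and 225 in WT non-irradiated ileum. Zbp1 had 606 and 592 normalised reads in WT irradiated ileum, against 431, 348 and 208 in WT non-irradiated ileum. Irgm1, another immunity-related GTPase, had 589 and 750 normalised reads in WT irradiated ileum, against 407, 365 and 371 in WT non-irradiated ileum, a log2 difference of 0.80 ± 0.46 (SE) with no overlap between groups.

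The members differed among themselves. Ifit1, an antiviral protein best known for type I interferon, had 306 and 601 normalised reads in WT irradiated ileum, against 698, 400 and 644 in WT non-irradiated ileum. Its groups overlapped, with a log2 difference of -0.39 ± 0.36 (SE). Ifit3, a relative in the same gene cluster, had 30.1 and 49.2 normalised reads in WT irradiated ileum, against 58.5, 59.6 and 88.6 in WT non-irradiated ileum, and was the member of the list with both irradiated mice below. Mx1, Oasl2 and Isg15, antiviral genes of the same kind, had log2 differences of -0.02, -0.09 and -0.31. Rsad2, which encodes viperin, went the other way, with 293.7 and 291.9 normalised reads in WT irradiated ileum, against 234.8, 225.2 and 260.2 in WT non-irradiated ileum. The chemokine Cxcl9, a sensitive readout of interferon-gamma in epithelium, overlapped between the groups in ileum, with a log2 difference of 0.41 ± 0.62 (SE). Over the whole list the median log2 difference was 0.33, and 0.31 and 0.33 inside the pairings. The median of all ileum genes was 0.02, and that of the 10635 genes averaging 100 normalised reads or more was 0.10. T cell and intraepithelial lymphocyte markers, 12 genes, took 23.9 to 42.5 reads per M in WT irradiated ileum and 30.6 to 31.1 in WT non-irradiated ileum, and their part in these values was not tested.

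**Figure D2:**
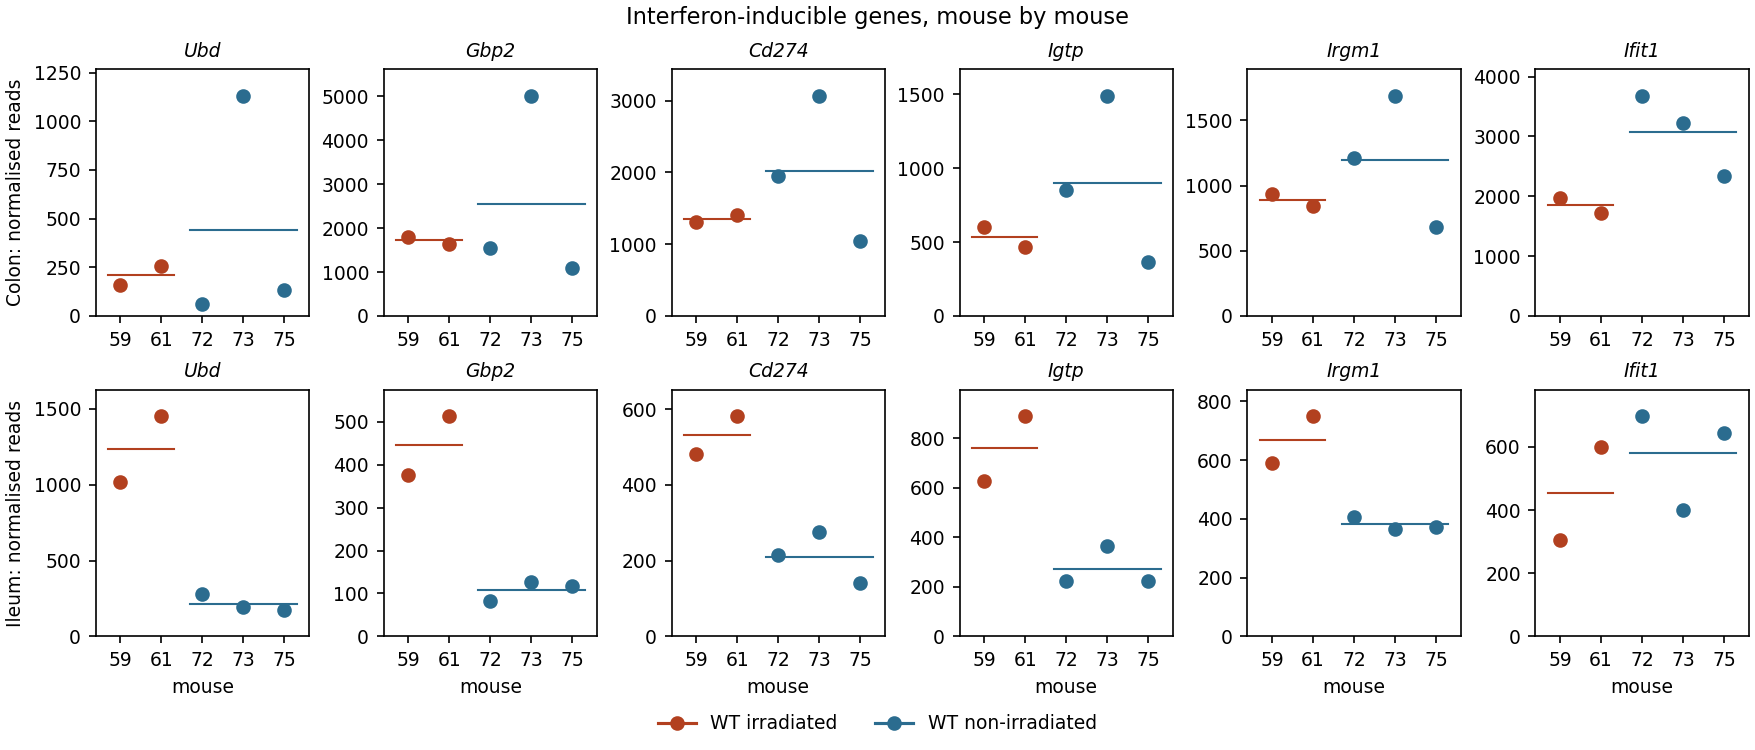
Normalised reads (vertical axes, starting at 0, each gene on its own scale) of 6 interferon-inducible genes in colon (top) and ileum (bottom); each point is 1 mouse, WT irradiated on the left in red and WT non-irradiated on the right in blue, and lines are group means. In ileum both irradiated mice lie above all non-irradiated mice for Ubd, Gbp2, Cd274, Igtp and Irgm1 but not for Ifit1, while in colon non-irradiated mouse 73 is the highest for all except Ifit1.

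The sequences upstream of Ubd, Gbp2, Gbp7 and Igtp are shown because these interferon-inducible genes kept the groups apart in ileum. They were chosen after their values and matches were seen. Each run covers the 250 bases before the RefSeq start, on the plus strand of GRCm38.p6. Capitals mark matches to the gamma-activated site TTCNNNGAA and to GAAA, any 2 bases and GAAA again, the core of the interferon-stimulated response element, searched on both strands. No match of one motif overlapped a match of the other in these 4 runs.
Ubd (chr17:37193642-37193891): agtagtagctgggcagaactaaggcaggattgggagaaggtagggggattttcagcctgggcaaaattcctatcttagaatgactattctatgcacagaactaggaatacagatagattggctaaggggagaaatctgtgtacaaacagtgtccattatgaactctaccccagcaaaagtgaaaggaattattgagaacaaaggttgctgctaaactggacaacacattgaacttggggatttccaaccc
Gbp2 (chr3:142620413-142620662): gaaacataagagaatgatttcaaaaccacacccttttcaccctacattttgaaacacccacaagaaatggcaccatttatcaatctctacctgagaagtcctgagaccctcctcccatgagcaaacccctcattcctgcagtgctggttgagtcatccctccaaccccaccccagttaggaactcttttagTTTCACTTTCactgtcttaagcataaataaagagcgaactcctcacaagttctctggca
Gbp7 (chr3:142530086-142530335): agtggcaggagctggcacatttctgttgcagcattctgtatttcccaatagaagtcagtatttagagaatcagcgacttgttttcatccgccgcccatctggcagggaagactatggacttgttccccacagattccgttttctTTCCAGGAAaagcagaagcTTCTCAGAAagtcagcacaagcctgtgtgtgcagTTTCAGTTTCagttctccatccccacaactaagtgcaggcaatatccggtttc
Igtp (chr11:58199306-58199555): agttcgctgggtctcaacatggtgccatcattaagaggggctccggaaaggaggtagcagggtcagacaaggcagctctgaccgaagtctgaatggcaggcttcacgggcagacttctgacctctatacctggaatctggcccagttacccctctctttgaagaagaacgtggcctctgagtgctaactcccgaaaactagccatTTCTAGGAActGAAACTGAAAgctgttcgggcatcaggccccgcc
Gbp2 held 1 response element core, starting 59 bases before the gene's start, Igtp held both motifs, and Gbp7 held 2 gamma-activated sites and 1 core. Ubd held neither motif in this window. Of all 27018 promoters of this length, 7.18% held TTCNNNGAA and 3.04% held the response element core. Of the 10 interferon list members whose ileum groups stood apart upwards, 7 had a sequence, and of these 4 held the first and 6 the second. Of the 21 other members, 16 had a sequence, and of these 3 held the first and 8 the second. The members were split by the same ileum values, and the shares of so few promoters were not tested against each other. A match describes letters only.

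Genes of antigen presentation lay higher in the irradiated ileum without passing the test. All 17 MHC class I genes tested had a log2 difference above 0, with a median of 0.28, or 0.16 in reads per M. The median of all ileum genes was 0.02, or -0.10 in reads per M. In 6 of the 17 (35.3%, against 5.67% of all genes) both irradiated mice were above all non-irradiated mice. Nlrc5, the transactivator of class I genes, had 745 and 576 normalised reads in WT irradiated ileum, against 251, 559 and 217 in WT non-irradiated ileum (log2 difference 1.07 ± 0.45, SE). Psmb9, an immunoproteasome subunit, had 507 and 407 normalised reads in WT irradiated ileum, against 293, 306 and 161 in WT non-irradiated ileum, and Tap1, which carries peptides into the endoplasmic reticulum, had 1248 and 1165 normalised reads in WT irradiated ileum, against 689, 941 and 590 in WT non-irradiated ileum. Of the 10 class II genes, which ileal epithelium expresses in the steady state, 9 lay above 0. H2-Aa, the class II alpha chain, had 8904 and 7703 normalised reads in WT irradiated ileum, against 5719, 5134 and 4397 in WT non-irradiated ileum. Its groups did not overlap and its log2 difference was 0.71 ± 0.38 (SE). H2-Ab1, the beta chain, overlapped, with 6756 and 4049 normalised reads in WT irradiated ileum, against 4098, 4165 and 2612 in WT non-irradiated ileum.

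The Reg3 lectins had higher values in the irradiated ileum without passing the test, as did most but not all of the list they belong to. Reg3b, an antimicrobial lectin of the ileal epithelium, had 203994 and 152385 normalised reads in WT irradiated ileum, against 105409, 54467 and 90888 in WT non-irradiated ileum. Reg3g, its neighbour and close relative that kills Gram-positive bacteria, had 102594 and 77437 normalised reads in WT irradiated ileum, against 52767, 24067 and 39832 in WT non-irradiated ileum. The log2 differences were 1.13 ± 0.51 and 1.27 ± 0.53 (SE), and both genes kept the groups apart in ileum. Of 21 antimicrobial and IL-22 response genes 16 lay above 0 and 5 below. Their median was 0.43, with 0.73 and 0.04 in the pairings, against 0.02 for all ileum genes. Both irradiated mice were above all non-irradiated mice for 2 of the 21 (9.52%, against 5.67% of all genes). Both were below for 2 (9.52%, against 4.15%). One of these last 2 was Reg4, a lectin of secretory cells, with 143 and 172 normalised reads in WT irradiated ileum, against 645, 183 and 247 in WT non-irradiated ileum. The other was Saa3, an acute-phase apolipoprotein with at most 10.4 normalised reads in any WT ileum library.

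Outside these lists the rule for naming genes picked Clic4 and Serpinb5 among the higher genes in ileum. Clic4, an intracellular chloride channel family protein, had 2026 and 1037 normalised reads in WT irradiated ileum, against 594, 658 and 648 in WT non-irradiated ileum. Serpinb5, the epithelial serpin maspin, had 272 and 229 normalised reads in WT irradiated ileum, against 142, 80.5 and 119 in WT non-irradiated ileum. The log2 differences were 1.20 ± 0.33 for Clic4 and 1.16 ± 0.30 for Serpinb5 (SE). Among the lower genes were Dio1, the deiodinase that activates thyroid hormone, Serpina1b, an alpha-1-antitrypsin gene, Sypl2, a synaptophysin-like membrane protein, and Tgm3, a transglutaminase. Dio1 had 402 and 355 normalised reads in WT irradiated ileum, against 1000, 446 and 1150 in WT non-irradiated ileum, a log2 difference of -1.08 ± 0.40 (SE). Mptx1, a mucosal pentraxin made mainly in the large intestine, had 15.0 and 10.9 normalised reads in WT irradiated ileum, against 64.9, 152 and 29.5 in WT non-irradiated ileum. Its log2 difference was -2.29 ± 0.64 (SE), with the groups apart at a low level. Lars2, which encodes mitochondrial leucyl-tRNA synthetase, had 1094 and 1658 normalised reads in WT irradiated ileum, against 4519, 270410 and 39632 in WT non-irradiated ileum. Its level moved with that of Rn45s, which had 81284 and 15475 normalised reads in WT irradiated ileum, against 56474, 4028564 and 566593 in WT non-irradiated ileum. With the Rn45s share as a covariate the log2 difference of Lars2 was -0.86, against -4.76 without it.

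In colon the named genes were spread over many functions, and single mice set how many had a small p. The 66 genes with an unadjusted p under 0.05 became 1924 without non-irradiated mouse 75, 176 without irradiated mouse 61 and 108 without irradiated mouse 59. In ileum the 187 became 989 without mouse 61, 531 without mouse 72, 128 without mouse 73 and 78 without mouse 59. None of these fits called a gene (0 in each), and with a lone irradiated mouse they assume that it varies like the other groups. Both irradiated mice were above all non-irradiated mice for 438 colon genes (2.29%) and below for 427 (2.23%), and the corresponding ileum counts were 1085 (5.67%) and 793 (4.15%). Slc15a2, which encodes the proton-coupled peptide transporter PEPT2, was the colon gene with the highest log2 difference among those the naming rule picked. It had 378 and 192 normalised reads in WT irradiated colon, against 28.0, 23.3 and 129 in WT non-irradiated colon. The log2 difference was 2.59 ± 0.94 (SE), but 3.83 between mouse 59 and the mean of mice 72 and 73 and 0.57 between mouse 61 and mouse 75.

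**Figure D3:**
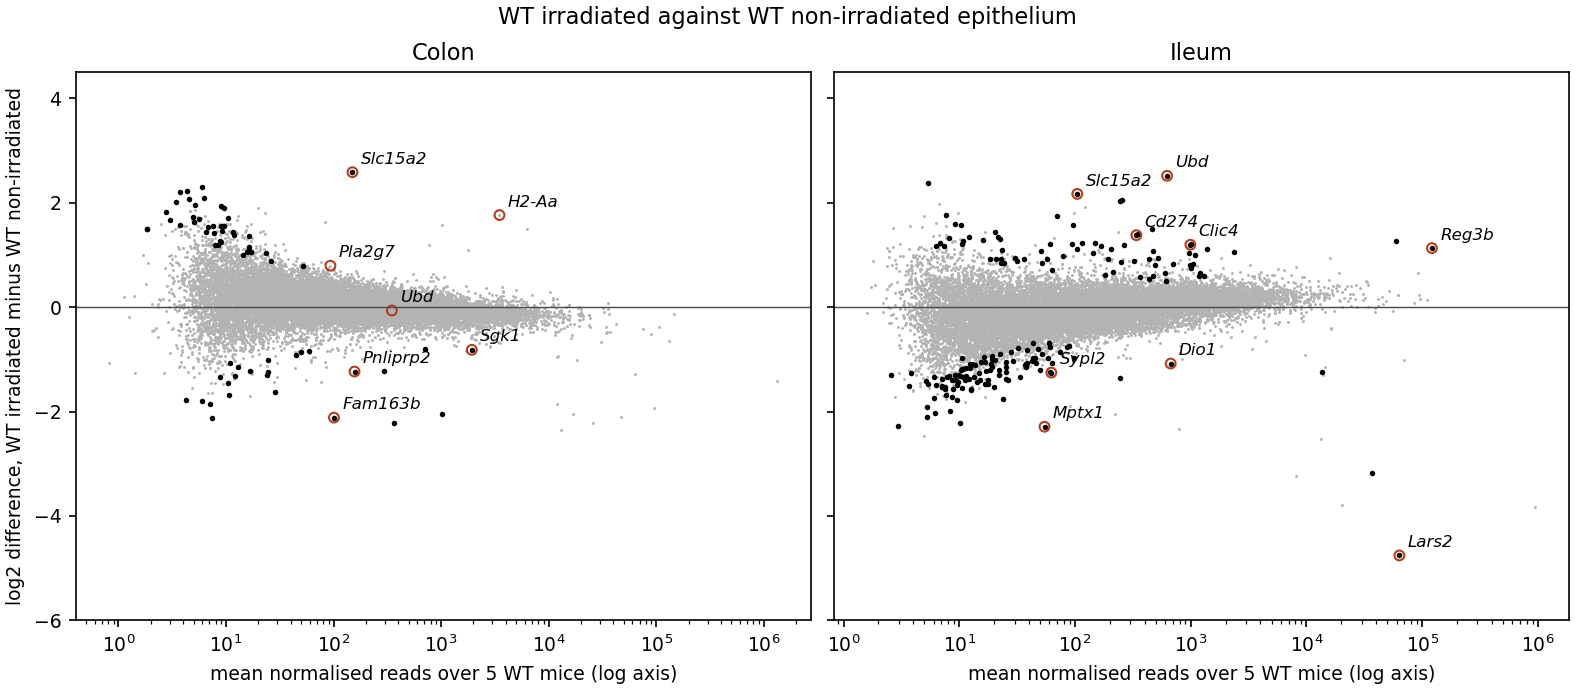
Log2 difference of WT irradiated minus WT non-irradiated epithelium (vertical axis) against the mean normalised reads over the 5 WT mice (horizontal log axis), 1 point per gene tested; black points have an unadjusted p under 0.05 and red rings mark genes named in the text. Ubd lies at 2.52 in ileum and at -0.06 in colon, and no point passed the adjusted threshold.

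The other genes picked on the higher side in colon were Pla2g7, which encodes a lipase that inactivates platelet-activating factor, Strada, Prmt7, an arginine methyltransferase, and Pla2g5, a secreted phospholipase, with log2 differences of 0.51 to 0.79. The pairing of mouse 59 gave larger differences than that of mouse 61. Pla2g7 differed by 1.19 between mouse 59 and the mean of mice 72 and 73, and by 0.02 between mouse 61 and mouse 75. These values were 0.91 and 0.11 for Pla2g5, 0.79 and 0.17 for Prmt7, and 0.73 and 0.32 for Strada. For Pla2g7 irradiated mice 59 and 61 were close in colon, with 123.5 and 119.0 normalised reads. Non-irradiated mice 72, 73 and 75 had 61.2, 46.6 and 117.3. The lower side held enzymes and a kinase. Pnliprp2, a lipase related to pancreatic lipase, had 107 and 66.2 normalised reads in WT irradiated colon, against 261, 174 and 174 in WT non-irradiated colon (log2 difference -1.23 ± 0.41, SE). Sgk1, a glucocorticoid- and aldosterone-induced kinase that raises sodium uptake, had 1224 and 1356 normalised reads in WT irradiated colon, against 2523, 3003 and 1546 in WT non-irradiated colon (-0.82 ± 0.35, SE), with -1.17 and -0.19 in the pairings. Ces2a, a carboxylesterase, had 2290 and 1701 normalised reads in WT irradiated colon, against 4028, 3764 and 2457 in WT non-irradiated colon, and Synpo2, an actin-binding protein, had 489 and 462 normalised reads in WT irradiated colon, against 749, 1157 and 670 in WT non-irradiated colon. Fam163b had the smallest unadjusted p of the colon, 0.0015 in limma, with 19.8 and 43.9 normalised reads in WT irradiated colon, against 176, 200 and 64.3 in WT non-irradiated colon. Its log2 difference was -2.12 ± 0.54 (SE), with -3.18 and -0.54 in the pairings. Mice 72 and 73, the highest for Fam163b, were also the highest for Rn45s, which had 83167 and 351359 normalised reads in WT irradiated colon, against 2578694, 3666116 and 10163 in WT non-irradiated colon. In ileum the mouse with the most Rn45s, mouse 73, also had the most Fam163b, 349 normalised reads against 12.7 to 43.4 in the others. With the Rn45s share as a covariate the log2 difference of Fam163b was -1.94 in colon, and 0.21 in ileum against -1.89 without it.

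The interferon-inducible genes of the ileum showed no such order in colon. Ubd had 158 and 259 normalised reads in WT irradiated colon, against 62.4, 1132 and 133 in WT non-irradiated colon, so that both irradiated mice lay inside the range of the non-irradiated mice. Its log2 difference was -0.06 ± 0.88 (SE), and between -1.08 and 1.14 over the alternatives. Gbp2 had 1791 and 1646 normalised reads in WT irradiated colon, against 1549, 5014 and 1102 in WT non-irradiated colon. Of 31 interferon response genes, 2 had a log2 difference above 0 in colon, and the median was -0.40, or -0.24 in reads per M. The median of all colon genes was 0.01, or 0.16 in reads per M. In 4 of the 31 both irradiated mice were below all non-irradiated mice (12.9%, against 2.23% of all genes). Ifit1 was one of those 4, with 1976 and 1729 normalised reads in WT irradiated colon, against 3681, 3220 and 2337 in WT non-irradiated colon. The others were Mx2, Rsad2 and Cxcl10, a chemokine. Their unadjusted p in limma ran from 0.0649 to 0.21. Non-irradiated mouse 73 had the highest Ubd, Gbp2 and Cd274 in colon. In ileum it had 195 normalised reads of Ubd, against 276 and 176 in mice 72 and 75. For Gbp2 and Cd274 it was the highest non-irradiated mouse in ileum, with 127 and 274 normalised reads.

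MHC class II genes spread widely between mice in colon. H2-Aa had 3912 and 3611 normalised reads in WT irradiated colon, against 841, 8903 and 180 in WT non-irradiated colon, a 49.5-fold range within the non-irradiated group. Cd74, the invariant chain that loads class II molecules, had 8879 and 5081 normalised reads in WT irradiated colon, against 2282, 14576 and 404 in WT non-irradiated colon. The median log2 difference of the 10 class II genes was 0.79, and it was 0.44 for mouse 59 against mice 72 and 73 and 2.16 for mouse 61 against mouse 75. The groups overlapped for all 10 genes in colon (0 apart in either direction, against 2.29% of all genes upwards and 2.23% downwards).

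Testing both tissues together, with the mouse as a random block, asked which differences recurred in colon and ileum of the same animals. The number with an unadjusted p under 0.05 was 46 of 19588 (0.235%). The groups stood apart in both tissues for 35 genes higher (0.179%) and 29 lower (0.148%) in WT irradiated mice, while 32 genes were higher in colon and lower in ileum (0.163%) and 40 the reverse (0.204%). The counts in the same direction were thus close to those in opposite directions. The 46 genes became 378 without mouse 61, 311 without mouse 75, 203 without mouse 72 and 88 without mouse 59. Slc15a2 had the smallest p of this comparison, with 224 and 130 normalised reads in WT irradiated ileum, against 14.4, 26.8 and 128 in WT non-irradiated ileum, in addition to its colon values. The ileum groups were apart by little more than 1 normalised read. Its common log2 difference was 2.38 ± 0.71 (SE), with a 95% interval of 0.92 to 3.84 and an unadjusted limma p of 0.00268. In both tissues the transporter was low in mice 72 and 73 and close to the level of irradiated mouse 61 in non-irradiated mouse 75.

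The other genes named in the common comparison differed by less. Tldc2, a protein with a TLDc domain, had a common log2 difference of 0.72 ± 0.37 (SE), with 242 and 162 normalised reads in WT irradiated ileum against 106, 124 and 116 in WT non-irradiated ileum. Fam122b, Rab2b, a small GTPase of the secretory pathway, and Nufip1, an RNA-binding protein, lay between 0.26 and 0.41. On the lower side Rnf39, a RING finger protein encoded in the MHC region, had -0.64 ± 0.29 (SE), and Ncoa7, which carries a TLDc domain as Tldc2 does, had -0.45 ± 0.23 (SE). Ncoa7 had 1814 and 1631 normalised reads in WT irradiated colon, against 2592, 2383 and 2176 in WT non-irradiated colon. Ifit3b and Fam65a followed at -0.55 and -0.51. Mptx1 had 21738 and 21974 normalised reads in WT irradiated colon, against 53568, 25996 and 30330 in WT non-irradiated colon, so that both irradiated mice were the lowest in colon and in ileum (common log2 difference -1.48 ± 0.81, SE). Reg4 shared this order, with 1058 and 1131 normalised reads in WT irradiated colon, against 2971, 1161 and 2138 in WT non-irradiated colon.

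**Figure D4:**
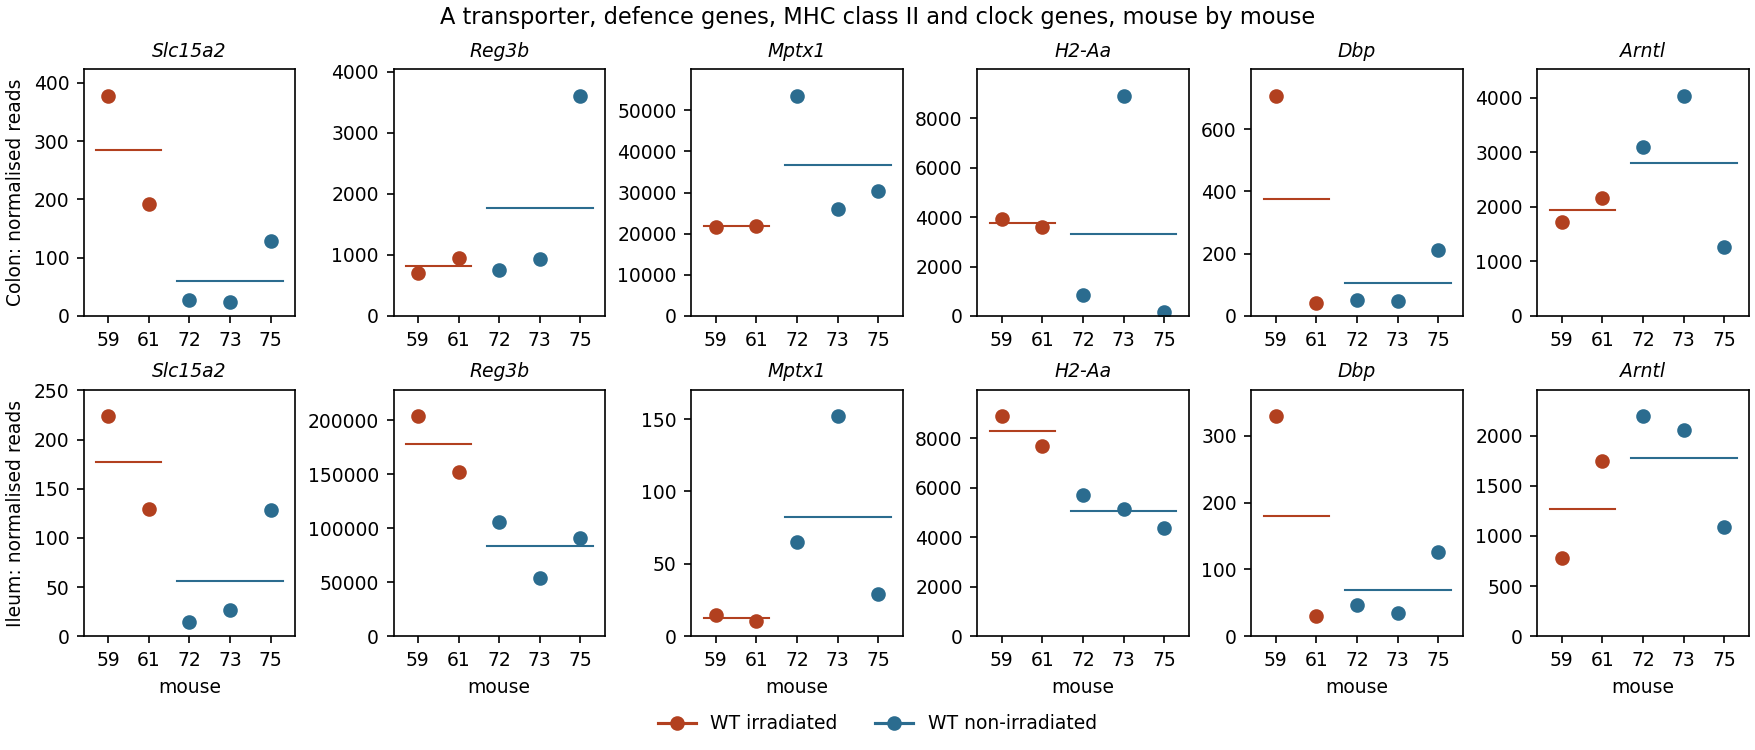
Normalised reads (vertical axes, starting at 0, each gene on its own scale) of 6 genes in colon (top) and ileum (bottom); each point is 1 mouse, WT irradiated on the left in red and WT non-irradiated on the right in blue, and lines are group means. Slc15a2 is highest in irradiated mouse 59 in both tissues, H2-Aa spans 180 to 8903 among the non-irradiated mice in colon, and Dbp is highest in irradiated mouse 59 and next in non-irradiated mouse 75 in both tissues.

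The difference between tissues was taken as the colon difference minus the ileum difference, so that a negative value means a higher ileum difference. An unadjusted p under 0.05 was found for 172 of 19588 genes (0.878%), of which 121 were positive (0.618%) and 51 negative (0.26%), and this number was 1074 without mouse 75, 86 without mouse 73 and 73 without mouse 59. Serpinb5 had the smallest p, with a difference of -1.27 ± 0.36 (SE). In colon it had 779 and 654 normalised reads in WT irradiated mice, against 922, 756 and 647 in WT non-irradiated mice, which overlapped. Cd274 had a difference of -1.82 ± 0.67, Clic4 of -1.45 ± 0.48, Prdm1 of -1.41 ± 0.48 and Sprr1a of -1.60 ± 0.58 (SE). Prdm1 encodes the repressor Blimp-1 and had 713 and 593 normalised reads in WT irradiated ileum, against 470, 343 and 317 in WT non-irradiated ileum. In colon it had 306 and 344 normalised reads in WT irradiated mice, against 519, 556 and 413 in WT non-irradiated mice, so the groups were apart in opposite directions. On the positive side Cyp2c66, a cytochrome P450 that oxidises fatty acids, had a difference of 1.82 ± 0.73 (SE). It had 97.4 and 153.8 normalised reads in WT irradiated ileum, against 381.4, 210.3 and 387.6 in WT non-irradiated ileum, which were apart, and its colon groups overlapped. Shank1, Pla2g7, Dsg4 and Rbbp9 were the other genes picked on that side, at 1.51, 1.32, 1.25 and 0.84. Ubd and Gbp2 had differences of -2.58 ± 1.15 and -2.29 ± 0.92 (SE) and did not pass either. Of the 31 interferon genes, 30 had a negative difference, with a median of -0.74, against a median of -0.01 for all genes. Other lists were as one-sided. All 20 unfolded protein response genes (median -0.47), all 20 oxidative phosphorylation genes (-0.34) and all 17 MHC class I genes (-0.58) were negative. All 10 endothelial marker genes were positive (0.56). Genes averaging 1000 normalised reads or more had a median log2 difference of -0.11 in colon and 0.15 in ileum.

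No gene of the lists for the acute response to radiation passed the test. Cdkn1a, the p53 target that halts the cell cycle, had 1696 and 826 normalised reads in WT irradiated colon, against 1625, 1769 and 1163 in WT non-irradiated colon, and 1992 and 922 in WT irradiated ileum, against 1059, 1227 and 854 in WT non-irradiated ileum. The groups overlapped in both tissues. Of 23 p53 target genes tested, 1 was apart upwards (4.35%, against 2.29% of all genes) and 3 downwards (13.0%, against 2.23%) in colon. In ileum 1 was apart each way (4.35%, against 5.67% upwards and 4.15% downwards of all genes). The medians were -0.22 in colon and 0.05 in ileum, and -0.06 and -0.07 in reads per M, and the colon pairings gave -0.13 and 0.03. Scaling to reads per M also moved the median of all genes, from 0.01 to 0.16 in colon and from 0.02 to -0.10 in ileum. Mdm2, the ligase that degrades p53, differed by -0.24 ± 0.26 in colon and 0.29 ± 0.23 in ileum (SE), and Ccng1, a cyclin and p53 target, by -0.34 ± 0.28 and 0.20 ± 0.28 (SE). The 20 DNA repair genes had medians of 0.15 in colon and 0.02 in ileum, and 0.31 and -0.10 in reads per M. In each tissue 2 of them (10%) were apart upwards, against 2.29% of all genes in colon and 5.67% in ileum.

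Proliferation genes overlapped between the groups in both tissues, and most stem cell genes did. Of 17 stem cell genes 1 was apart upwards in colon (5.88%, against 2.29% of all genes) and 0 downwards. In ileum 2 of the 17 were apart downwards (11.8%, against 4.15% of all genes) and 0 upwards. Mki67, a marker of dividing cells, had 1770 and 1613 normalised reads in WT irradiated colon, against 2088, 1317 and 1115 in WT non-irradiated colon, a log2 difference of 0.22 ± 0.34 (SE). In ileum it had 1947 and 2980 normalised reads in WT irradiated mice, against 2795, 2304 and 2023 in WT non-irradiated mice. None of the 20 cell cycle genes was apart in either tissue (0 of 20 each way). Over all genes 2.29% were apart upwards and 2.23% downwards in colon, and 5.67% and 4.15% in ileum. Lgr5, the receptor that marks crypt stem cells, had 235 and 290 normalised reads in WT irradiated colon, against 217, 202 and 297 in WT non-irradiated colon. In ileum Lgr5 had 447 and 440 normalised reads in WT irradiated ileum, against 541, 452 and 521 in WT non-irradiated ileum, just apart, with a log2 difference of -0.18 ± 0.27 (SE). Olfm4, a secreted glycoprotein of ileal stem cells, had 3182 and 3730 normalised reads in WT irradiated ileum, against 7071, 3920 and 3444 in WT non-irradiated ileum. Clu, the clusterin gene that marks revival stem cells after injury, had 22.2 and 29.7 normalised reads in WT irradiated ileum, against 53.7, 40.3 and 46.1 in WT non-irradiated ileum, a log2 difference of -0.83 ± 0.38 (SE), while in colon it was 0.46 ± 0.43 (SE). Ly6a, the Sca-1 gene of fetal-like epithelium, lay the other way in ileum, with 68.1 and 89.0 normalised reads in WT irradiated ileum, against 41.7, 53.7 and 27.7 in WT non-irradiated ileum. Of 16 fetal-like genes 9 lay above 0 in ileum, 1 was apart upwards (6.25%, against 5.67% of all genes) and 3 downwards (18.8%, against 4.15% of all genes).

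**Figure D5:**
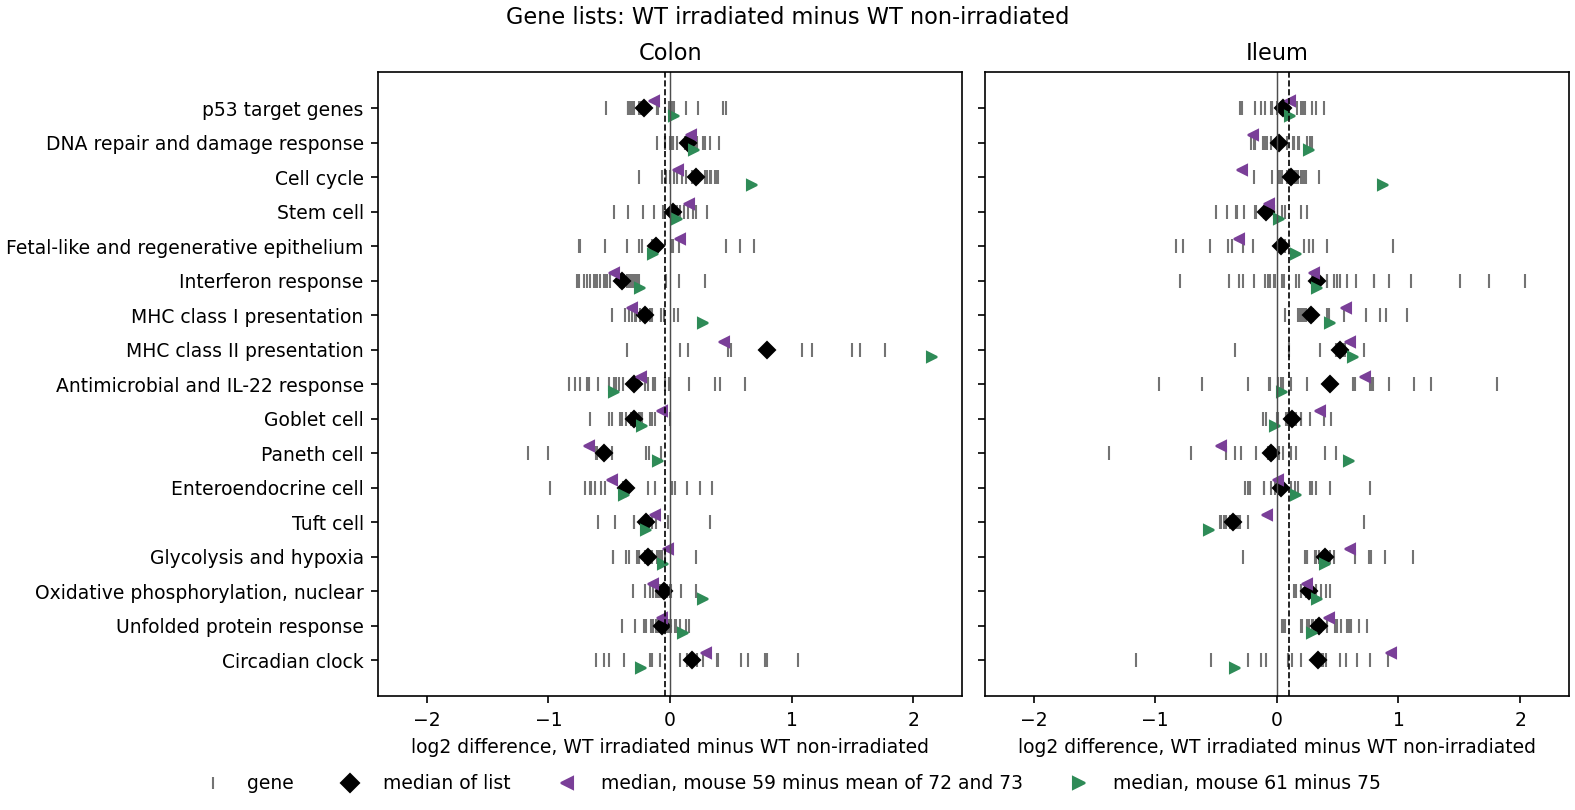
Log2 differences of WT irradiated minus WT non-irradiated mice for 17 gene lists in colon (left) and ileum (right); ticks are genes, diamonds list medians, triangles the medians of mouse 59 minus the mean of mice 72 and 73 (pointing left) and of mouse 61 minus mouse 75 (pointing right), and the dashed line is the median of genes averaging 100 normalised reads or more (-0.04 in colon, 0.10 in ileum). The interferon median is -0.40 in colon and 0.33 in ileum, and the cell cycle medians of the pairings differ in sign in ileum (-0.29 and 0.87).

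No member of the epithelial cell type lists passed the test. The 15 goblet cell genes all had negative log2 differences in colon, with 0 apart (against 2.29% of all genes upwards and 2.23% downwards). Their median of -0.29 was -0.14 in reads per M and -0.07 without mice 61 and 75. The median of all colon genes was 0.01, with 0.16 and 0.05 under these settings. Muc2, the gel-forming mucin, had 106420 and 31913 normalised reads in WT irradiated colon, against 88212, 101013 and 52458 in WT non-irradiated colon, so that both groups held a high and a low mouse. Of 17 enteroendocrine genes 4 were apart downwards in colon (23.5%, against 2.23% of all genes) and 0 in ileum (against 4.15%). One of the 4 was Chga, a granule protein, with 427 and 574 normalised reads in WT irradiated colon, against 619, 948 and 743 in WT non-irradiated colon. In colon 6 of the 17 lay above 0 and 11 below. The list together took 138 and 378 reads per M in WT irradiated colon, against 253, 237 and 414 in WT non-irradiated colon, which overlapped. Of 12 tuft cell genes 1 lay above 0 in ileum, and 2 were apart downwards (16.7%, against 4.15% of all genes). Their median of -0.36 was -0.08 without mice 61 and 75, and -0.56 between mouse 61 and mouse 75. Lyz1, the lysozyme of Paneth cells, had 8136 and 9720 normalised reads in WT irradiated ileum, against 19821, 5343 and 5231 in WT non-irradiated ileum, where mouse 72 stood highest for most Paneth genes.

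Clca4b, a calcium-activated chloride channel regulator of the villus, had 35156 and 32656 normalised reads in WT irradiated ileum, against 33272, 20342 and 40320 in WT non-irradiated ileum. The groups overlapped, with a log2 difference of 0.17 ± 0.37 (SE).

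Some metabolic lists lay above 0 gene after gene in the irradiated ileum. All 20 unfolded protein response genes (median 0.34, 4 or 20.0% apart upwards) and all 20 nuclear genes of oxidative phosphorylation (median 0.26, 4 or 20.0% apart upwards) did so, as did 17 of 18 glycolysis and hypoxia genes (median 0.40, 5 or 27.8% apart upwards). The share apart upwards over all ileum genes was 5.67%. Hspa5, the chaperone BiP of the endoplasmic reticulum, had 9582 and 9028 normalised reads in WT irradiated ileum, against 7229, 5389 and 5847 in WT non-irradiated ileum (log2 difference 0.61 ± 0.36, SE). Pgk1, a glycolytic kinase, had 452 and 361 normalised reads in WT irradiated ileum, against 235, 198 and 223 in WT non-irradiated ileum. Abundant genes as a whole lay on the same side: the median over genes averaging 1000 normalised reads or more was 0.15 in ileum and -0.11 in colon, and 0.03 and 0.04 in reads per M. That scaling moved the median of all genes to -0.10 in ileum and 0.16 in colon, against 0.02 and 0.01. The ileum medians of the same lists were 0.22 (unfolded protein response), 0.14 (oxidative phosphorylation) and 0.27 (glycolysis) when values were scaled to reads per M.

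Clock genes differed between mice in a way that crossed the groups. Dbp, an output gene of the circadian clock, had 708 and 40.9 normalised reads in WT irradiated colon, against 52.2, 49.7 and 213 in WT non-irradiated colon. In ileum it had 329 and 30.4 in WT irradiated mice, against 46.5, 34.3 and 126 in WT non-irradiated mice. Mice 59 and 75 were thus the high ones in both tissues, one from each group. Arntl, the clock activator BMAL1, whose RNA peaks when that of Dbp is low, was lowest in the same mice in ileum, with 778 and 1749 normalised reads in WT irradiated mice, against 2195, 2055 and 1088 in WT non-irradiated mice. Dbp differed by 3.77 on the log2 scale between mouse 59 and the mean of mice 72 and 73 in colon and by -2.35 between mouse 61 and mouse 75. The labels give no hour of collection.

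The intervals show which sizes of change the 5 mice could leave unseen. In colon the 95% interval of the log2 difference lay within ±1 for 44.7% of genes and within ±2 for 92.9%. In ileum these shares were 45.2 and 92.4%, and for the common difference 66.9 and 97.5%. In the same colon fit, 3 KO late stage mice, also at 8 weeks post chimerism, differed from WT irradiated mice in 197 genes (1.03%) and from WT non-irradiated mice in 476 (2.49%). The intervals are those of single genes, without adjustment for the number of genes tested. With 2 irradiated mice, differences smaller than an interval's half-width could not be called, and larger ones could also go uncalled. Ubd in ileum, at 2.52 with an interval of 1.31 to 3.72, did not pass.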

How the data were processed

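Sorted epithelial RNA of colon and ileum was sequenced from 100 ng of total RNA per library, after ribosomal depletion with a stranded kit, as single-end 50 bp reads on 3 lanes, per the labels' protocols. HISAT 0.1.6, HOMER, bcl2fastq and the build mm9 are named in the submitters' processing notes. The deposited table of the authors holds a normalised signal per gene: whole read counts divided by 1 size factor per library, which was recovered from the low values (100% whole within a tolerance of 0.05 deposited units). The design assumed raw counts. Because the authors' values are normalised, limma 3.58.1 (R 4.3.3) on log2(value + 1) was the main test, on genes reaching 10 normalised reads in 2 or more libraries, with Benjamini-Hochberg adjustment and a threshold of 0.05. Each tissue was fitted over its 12 libraries. The common difference was fitted over 24 libraries with the mouse as a random block (correlation 0.32, statmod 1.5.0), and the difference between tissues without it. edgeR 4.0.16 and DESeq2 1.42.0 on recovered reads were alternatives, without 1 KO ileum library whose step near 1 cannot be checked, and sva 3.50.0 gave the surrogate variables.

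Colon and ileum libraries with the same number come from 1 mouse. Their deviations from the group means correlated between -0.59 and 0.69 over the 10 mice outside the WT irradiated group (median 0.30), above 0.1 in 5. In a group of 2 the deviations mirror each other, so irradiated mice 59 and 61 give 1 shared value, 0.81. They were left out of this range. No 2 WT libraries of a tissue agreed within sampling noise. Total reads and counts limit each level by sampling only, while the spread between 2 and 3 mice sets the errors given. Named genes were the 5 per direction and comparison with the smallest p, an average of 5 or more reads per M and groups that did not overlap (overlap was allowed for the difference), plus 16 preset genes, some of which are not reported here. Others were chosen after their values were seen. The members and gene lists were chosen with earlier results of these data known. Promoter sequences are RefSeq's on GRCm38.p6, matched by symbol.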

Additional observations from a re-analysis of the deposited data

How the results depend on the processing

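Over 72 alternatives, 18 for each comparison, the number of genes called was 0 as in the main analysis, with 1 exception. The ileum fit on WT libraries only with 1 surrogate variable, chosen after the data were seen, called 2 genes, Ubd and Gbp2, and the cause was not tested. Leaving out each mouse in turn called 0 to 0 genes in every comparison, while the number at an unadjusted limma p under 0.05 ran from 64 to 1924 in colon, 78 to 989 in ileum, 49 to 378 in common and 73 to 1074 for the difference. The common comparison without the replicate block gave 0 called and 113 at an unadjusted p under 0.05, against 46 with the mouse as a block, and 61 with 1 value per mouse. The difference between tissues gave 172 without the block, 505 with the replicate block and 629 with 1 difference per mouse, again with 0 called. Without mice 61 and 75 the numbers were 496, 529, 254 and 821. With the receptor reads as a covariate they were 277, 420, 244 and 408, with the Rn45s share 82, 178, 80 and 332, with no filter on low values 238, 339, 123 and 289, and with a filter of 50 normalised reads 11, 88, 16 and 66. Of 5536 values of named genes under the alternatives, 5378 lay within 1 SD of the main value, 156 moved by more and 2 were the newly called values above. Of all of them, 304 had the other sign. These results rest on 2 irradiated mice, and the limits set by the number of mice and by read depth were not compared.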

Other observations

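The KO libraries of the same tissue give a scale for the ileum genes that kept the WT groups apart. Ubd had 556 to 3137 normalised reads in KO early stage ileum (median 2207, 4 mice) and 1324 to 2846 in KO late stage ileum (median 1663, 3 mice), against 1019 and 1453 in WT irradiated ileum and 176 to 276 in WT non-irradiated ileum. Gbp2 had a median of 521 in KO early stage and 627 in KO late stage ileum, against 377 and 514 in WT irradiated ileum. Cd274 had a median of 899 in KO early stage and 1012 in KO late stage ileum, against 481 and 582 in WT irradiated ileum. The mucosal pentraxin Mptx1 had 9.10 to 19.5 normalised reads in KO early stage ileum and 6.60 to 20.1 in KO late stage ileum, against 15.0 and 10.9 in WT irradiated ileum and 29.5 to 152 in WT non-irradiated ileum. In colon Ubd had 850 to 2898 normalised reads in KO early stage and 3921 to 8099 in KO late stage mice. WT irradiated colon had 158 and 259, and WT non-irradiated colon 62.4 to 1132. Mptx1 had 179 to 6781 normalised reads in KO early stage and 83.0 to 287 in KO late stage colon. WT irradiated colon had 21738 and 21974, and WT non-irradiated colon 25996 to 53568. All KO mice are labelled post chimerism, as the WT irradiated mice are. These values are a description, and no test was made of them here.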
